A study of Mus musculus with 6 samples.

Results

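The complement components examined here were 9 genes chosen by symbol: C3, Hc (which encodes C5), C6, C8a, C8b, C8g, C9, Cfb and Cfi. All 9 were among the 22068 gene symbols of the files, and all 9 passed the filter on low values (a mean of at least 1 RPKM, reads scaled to gene length and library depth), as did 11062 symbols in all. Polyadenylated RNA was sequenced from whole liver of C57BL/6 mice aged 6 weeks, with 3 libraries from control mice and 3 from Mst1/2 liver-dKO mice, called dKO here. Mst1 and Mst2 (mouse genes Stk4 and Stk3) are the Hippo pathway kinases that restrain the coactivators YAP and TAZ. Control mice were Mst1-/-; Mst2fl/fl; alb-Cre-/- and dKO mice were Mst1-/-; Mst2fl/fl; alb-Cre+/+, so both groups lacked Mst1 throughout and the comparison concerned Cre from the albumin promoter, which is active in hepatocytes and their fetal precursors, acting on floxed Mst2. The labels give neither sex nor whether the replicates were separate animals, so the p-values measure the spread between these libraries, which may be technical.

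Complement is a cascade of plasma proteins, most of them made by hepatocytes. C3 is cleaved by convertases, of which that of the alternative pathway carries the protease fragment of factor B (Cfb), and factor I (Cfi) inactivates the C3b and C4b fragments. Cleavage of C5 then starts the terminal pathway, in which C6, C7, C8 (chains alpha, beta and gamma, from C8a, C8b and C8g) and a ring of C9 molecules assemble into the membrane attack complex.

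In dKO liver the terminal components parted. C9 transcripts were 5.15-fold higher (52.8 ± 8.15 RPKM in control and 272 ± 32.7 RPKM in dKO, mean ± SD, n = 3), C6 transcripts were 1.99-fold higher at a level far below that of C9, and transcripts of Hc stood at 0.687 of the control level. C3, the most abundant of the 9, did not pass the test, nor did the 3 chains of C8, Cfb and Cfi. With limma and Benjamini-Hochberg adjustment over all tested genes, at an adjusted p under 0.05, 2 of the 9 were called higher, against 17.8% of all tested genes, and 1 was called lower, against 2.17%. With only 9 genes, the count called higher was near the share of all tested genes. The median log2 change of the 9 was -0.10, beside 0.23 for all tested genes.

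The windows around the annotated transcription start of the 3 called genes are given to show the sequence context of the transcripts that moved, as 250 bases before the start and 30 transcribed bases, from RefSeq on GRCm38.p6, which is not the build of the files. Entries were found for C3, Hc, C6, C8a, C8b, C8g (with 2 starts) and C9. Capitals mark matches, on either strand, to CATTCC (the TEAD motif, TEAD being the DNA-binding partner of YAP and TAZ), TTCNNNGAA (STAT), GTTAAT (the core of the HNF1 motif) or TTGCNNAA (C/EBP). The C9 window lies at chr15:6445096-6445375 (+ strand), the C6 window at chr15:4726960-4727239 (+ strand) and the Hc window at chr2:35061383-35061662 (- strand).
C9: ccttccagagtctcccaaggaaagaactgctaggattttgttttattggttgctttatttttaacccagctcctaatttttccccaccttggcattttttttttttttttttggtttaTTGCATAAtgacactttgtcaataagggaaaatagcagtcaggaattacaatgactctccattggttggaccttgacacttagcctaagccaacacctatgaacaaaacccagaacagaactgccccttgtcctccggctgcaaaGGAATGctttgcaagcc
C6: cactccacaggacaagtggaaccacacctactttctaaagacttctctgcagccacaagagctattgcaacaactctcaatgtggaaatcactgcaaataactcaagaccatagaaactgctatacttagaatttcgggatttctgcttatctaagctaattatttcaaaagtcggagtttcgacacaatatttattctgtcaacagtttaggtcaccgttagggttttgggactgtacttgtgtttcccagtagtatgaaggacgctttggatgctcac
Hc: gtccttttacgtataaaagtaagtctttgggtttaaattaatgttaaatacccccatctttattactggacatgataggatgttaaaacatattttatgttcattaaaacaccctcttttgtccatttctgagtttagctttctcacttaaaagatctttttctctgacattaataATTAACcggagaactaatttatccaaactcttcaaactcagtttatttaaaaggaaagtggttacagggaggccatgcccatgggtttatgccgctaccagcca

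The C9 window held CATTCC, read as GGAATG, from 13 bases after the start, and TTGCNNAA from position -132. The search covered the whole RefSeq window of 300 bases of each member with an entry, of which 280 are printed. Cfb and Cfi had no entry and were not searched. Windows of the same 300 bases gave the shares over all genes. None of the other member windows held CATTCC, which occurred in 14.7% of all 32851 windows. The C6 window held none of the 4 motifs, and the Hc window held GTTAAT at -74, as did those of C8a (-107) and C8b (-206), against 7.1% of all windows. TTGCNNAA was also found in the C3 window, at -45, against 10.8% of all windows, and TTCNNNGAA in that of C8a, at -228, against 8.3%. The motifs did not overlap each other in the printed windows, and a match is a description of letters, not of binding.

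The libraries were alike in total and less alike in makeup. RPKM summed to 364571 to 368246 in control and to 324034 to 352678 in dKO libraries, and the spacing of low values gave estimated depths of 17.20 to 25.10 M (mega) reads, as read totals were not in the files. Stk3 measured 6.00, 5.42 and 5.20 RPKM in control and 5.13, 4.25 and 5.32 RPKM in dKO (limma adjusted p = 0.424), and Stk4 measured 5.50, 4.69 and 4.66 RPKM and 5.84, 4.93 and 5.76 RPKM (limma adjusted p = 0.487), so neither gave a check of the labels in this fit. Of 14 alternative settings 1, quantile normalization, called Stk3 lower (log2 change -0.44, limma adjusted p = 0.0475). Median-ratio scaling did not (-0.39, limma adjusted p = 0.0594). Both groups carry the Mst1 deletion, and whether the reads of Stk3 come from outside its floxed part was not tested. On the first principal component dKO replicate 3 lay at 49.0, beside 20.3 and 19.2 for the other dKO libraries. Most genes had a slightly higher RPKM in dKO, and scaling by the median ratio moved the median log2 change of all tested genes by -0.24. After that scaling, the test called 7.86% of genes higher and 5.57% lower, and the calls were 58.6% increases, against 89.1% before it. Relative to the median of all tested genes, the log2 change was 2.12 for C9, 0.63 for C6, 0.08 for Cfb, -0.06 for Cfi, -0.33 for C3, -0.39 for C8a, -0.53 for C8b, -0.76 for Hc and -0.88 for C8g.

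**Figure D1:**
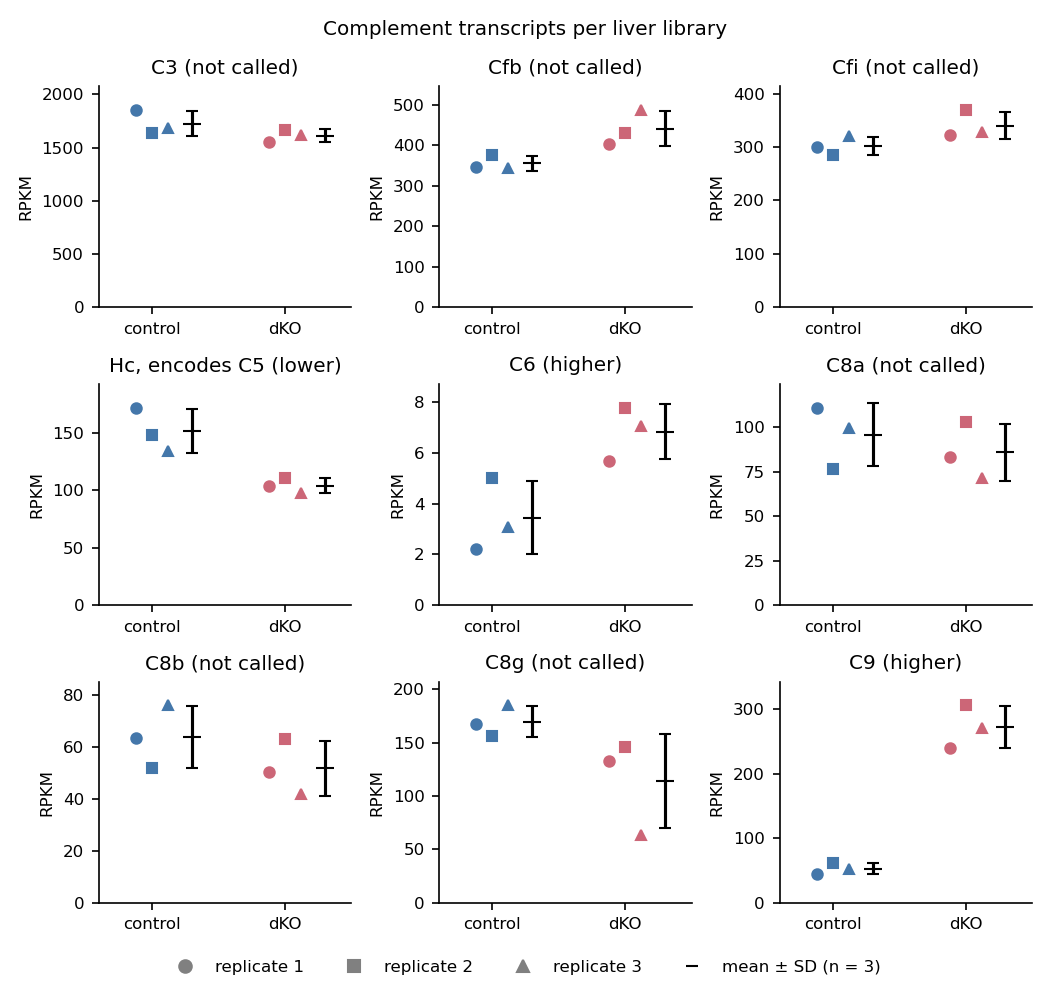
RPKM of the 9 components (vertical axes, from 0) in each control and dKO library (points, shaped by replicate), with the group mean and SD (n = 3). The dKO values of C9 lie between 240.2 and 306 RPKM and the control values between 44.9 and 61.2 RPKM, while the groups overlap for C3, C8a and C8b.

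C9, the pore-forming last component, was at 44.9, 61.2 and 52.3 RPKM in the control libraries, given here and below in replicate order, and at 240.2, 306 and 271 RPKM in those of dKO liver. Every dKO library was far above every control library, and the closest pair of libraries differed 3.93-fold. On the log2(RPKM + 1) scale, used for all log2 changes, C9 differed by 2.35 ± 0.17 (SE; limma adjusted p = 0.000364). By p-value C9 ranked 11 among the 11062 tested genes, and by log2 change 52. Without any one library the log2 change lay between 2.24 and 2.46, and the limma adjusted p stayed at or under 0.00511 in each of the 14 alternative settings.

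C6, which binds C5b and so opens the assembly, was the least abundant of the 9. It measured 2.21, 5.03 and 3.08 RPKM in control and 5.66, 7.79 and 7.07 RPKM in dKO libraries. Control replicate 2 lay close below dKO replicate 1, with no overlap between groups. C6 differed by 0.86 ± 0.23 (log2 change, SE; limma adjusted p = 0.0337). Median-ratio scaling and quantile normalization ended that call (limma adjusted p = 0.0926 and 0.117), as did fits without control replicate 1 (0.0955), control replicate 3 (0.094), dKO replicate 2 (0.0824) or dKO replicate 3 (0.101), while the log2 change stayed between 0.56 and 1.11 over the 14 alternatives.

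Hc, whose product C5 is the substrate that opens the terminal pathway, measured 172, 148 and 134 RPKM in control and 104, 110.4 and 97.4 RPKM in dKO. All dKO libraries were below all control libraries. Hc differed by a log2 change of -0.53 ± 0.16 (SE; limma adjusted p = 0.0453), just inside the threshold. Leaving out any one library ended the call, with limma adjusted p from 0.0552 to 0.139 and log2 changes from -0.61 to -0.44, while median-ratio scaling kept it at a log2 change of -0.82.

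The 3 chains of C8 join the complex before C9. C8g, the gamma chain and a lipocalin, measured 168, 156 and 185 RPKM in control and 133, 146 and 63.5 RPKM in dKO. Its groups did not overlap, yet dKO replicate 3 stood far below the others, and the log2 change of -0.65 ± 0.30 (SE) had a limma adjusted p of 0.143 (95% interval -1.33 to 0.02). Without dKO replicate 3 the C8g log2 change was -0.28. C8a, the alpha chain, measured 111, 76.5 and 99.6 RPKM in control and 83.1, 103 and 71.2 RPKM in dKO (limma adjusted p = 0.58, 95% interval of the log2 change -0.61 to 0.29). C8b, the beta chain, measured 63.4, 52.0 and 75.9 RPKM in control and 50.3, 63.0 and 41.9 RPKM in dKO (limma adjusted p = 0.288, 95% interval -0.75 to 0.15). Values of the C8a and C8b groups were interleaved. C8b was called lower when libraries were weighted by their quality (limma adjusted p = 0.0251). That setting called 601 of all 11062 tested genes lower, against 240 without weights. In RefSeq C8a and C8b are neighbours with 0 genes between them. The spans of C8a and C8g overlap those of the genes Fyb2 and Fbxw5. That of Hc overlaps the noncoding RNA genes Gm39794 and Gm52552, and those of Cfi, C3 and Cfb overlap the noncoding Gm36180, Mir6978 and Mir6972. As the counting is not stated to use strand, reads of such overlaps cannot be told apart.

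C3, the hub of all activation routes, measured 1856, 1639 and 1683 RPKM in control and 1549, 1666 and 1620.4 RPKM in dKO. The groups overlapped, with a log2 change of -0.10 ± 0.19 (SE), a limma adjusted p of 0.719 and a 95% interval of -0.52 to 0.33, and the direction turned under quantile normalization (0.34). Cfb, the alternative pathway protease, measured 346, 376 and 343 RPKM in control and 403, 431 and 487 RPKM in dKO. All dKO values of Cfb were above all control values, and the log2 change of 0.31 ± 0.17 (SE) did not pass (limma adjusted p = 0.209, 95% interval -0.07 to 0.69). Cfi, the protease that shuts the convertases down, measured 299.8, 285 and 320.1 RPKM in control and 322, 370.0 and 328 RPKM in dKO. Its groups met within 1.01-fold, and the log2 change of 0.17 ± 0.16 (SE) had a limma adjusted p of 0.453 and turned to -0.11 with median-ratio scaling. In all, the groups did not overlap with dKO higher at 4 of the 9 genes, against 38.3% of tested genes, and with dKO lower at 2 of the 9, against 6.73%.

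The order of transcript levels changed mainly through C9. In control liver it ran C3, Cfb, Cfi, C8g, Hc, C8a, C8b, C9 and C6 by mean RPKM, where the library ranges of C8g and Hc and of C8b and C9 overlapped and the other neighbours were apart. In dKO liver C9 stood at rank 4 in place of rank 8, behind C3, Cfb and Cfi, and ahead of C8g, Hc, C8a, C8b and C6. The ranges of C8g and Hc and of Hc and C8a overlapped there.

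**Figure D2:**
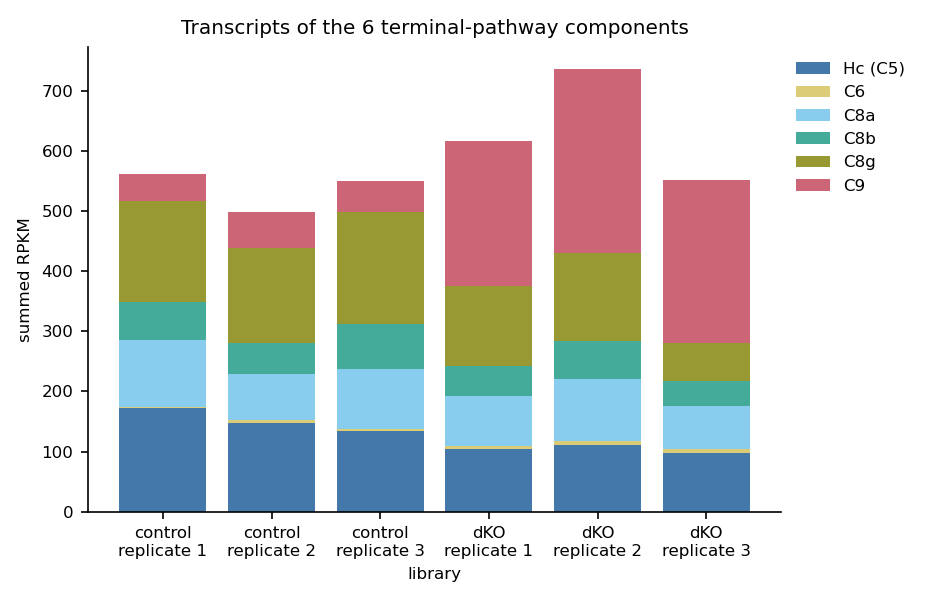
Summed RPKM (vertical axis, from 0) of Hc, C6, C8a, C8b, C8g and C9 in each library, stacked by gene. C9 makes up 8.0% to 12.3% of the control bars and 39.0% to 49.0% of the dKO bars.

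Added up, transcripts of Hc, C6, the C8 chains and C9 came to 561, 499 and 550.0 RPKM in control and 616, 736 and 552 RPKM in dKO libraries. C9 made up 8.0%, 12.3% and 9.52% of this sum in control and 39.0%, 41.5% and 49.0% in dKO. Without C9 the sum was 516, 438 and 498 RPKM in control and 376, 430.1 and 281 RPKM in dKO, lower in every dKO library, with dKO replicate 2 close below control replicate 2. All 9 components together took 0.761% to 0.840% of all RPKM in control libraries and 0.828% to 0.922% in dKO libraries, and C3 alone was 58.1% to 60.6% of the 9 in control and 52.0% to 54.2% in dKO.

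Ratios between components within a library are not altered by scaling each library with 1 factor, as median-ratio scaling does, but quantile normalization can alter them. With the latter the log2 changes of C3, Cfi, Cfb and Hc were 0.34, 0.33, 0.49 and -0.45. The ratios of deposited values were taken as a description, since the smallest two-sided exact permutation p of 3 against 3 libraries is 0.1. The ratio of C9 to C6 was 20.3, 12.2 and 17.0 in control and 42.4, 39.2 and 38.3 in dKO, higher in every dKO library. The ratio of Hc to C3 was 0.0926, 0.0901 and 0.0796 in control and 0.0669, 0.0663 and 0.0601 in dKO, with no overlap. Cfb over C3 lay at 0.187 to 0.229 in control and at 0.259 to 0.301 in dKO, and Cfi over C3 at 0.162 to 0.190 and at 0.203 to 0.222, also without overlap. Within C8 the groups overlapped: C8a over C8b was 1.75, 1.47 and 1.31 in control and 1.65, 1.63 and 1.70 in dKO, and C8g over C8b was 2.65, 3.01 and 2.44 against 2.65, 2.32 and 1.52.

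**Figure D3:**
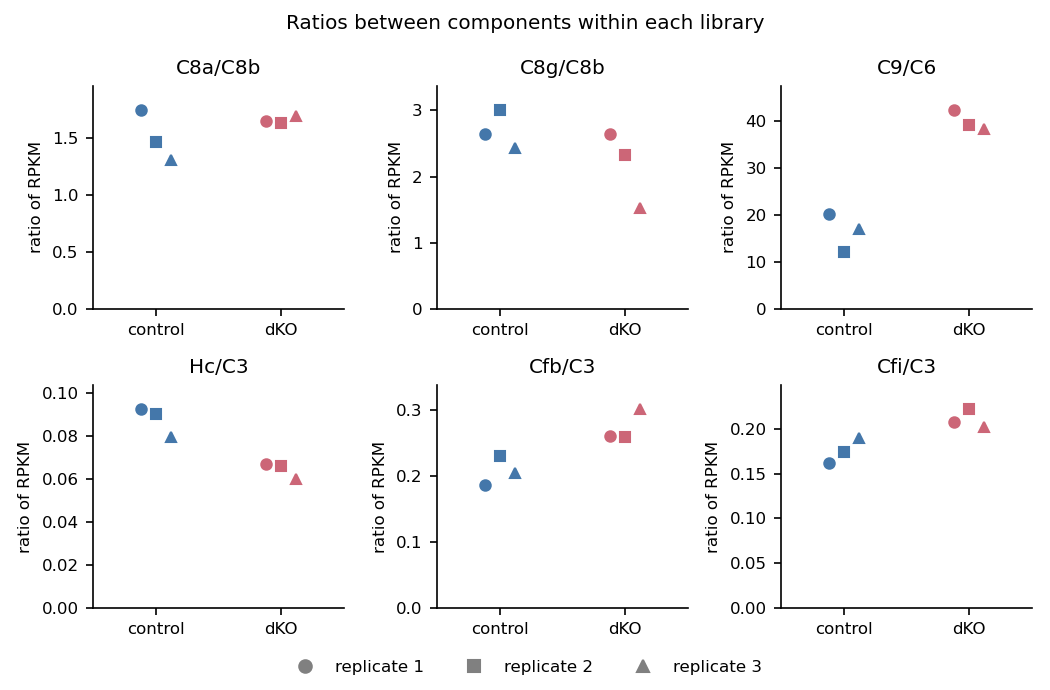
Ratio of RPKM between pairs of components (vertical axes, from 0) in each library, with points shaped by replicate. The C9/C6 ratio lies at 12.2 to 20.3 in control and at 38.3 to 42.4 in dKO, while the ratios within C8 overlap between the groups.

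The other complement genes moved in both directions. Of 44 found in the files, 32 were tested, of which 8 were called higher, against 17.8% of all tested genes, and 2 lower, against 2.17%, with a median log2 change of 0.00. Among the 8 was C3ar1, which passed the filter on low values only through its dKO libraries. After median-ratio scaling 4 were higher (C3ar1, Clu, Fcna and Vsig4, all among the 8), against 7.86% of all tested genes, and 4 were lower, against 5.57%. Leaving out control replicate 1 left 1 increase and 1 decrease, control replicate 3 left 3 increases, and each dKO replicate left 4. Increases over all tested genes fell too, from 1965 to 763 without control replicate 1 and 957 without control replicate 3. Without dKO replicates 1, 2 and 3 they numbered 1153, 1554 and 988. C7, the component between C6 and C8, was not analysed here.

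Among recognition molecules and proteases of the classical and lectin pathways, 4 of 15 tested genes rose, 1 fell and 10 did not pass (against 17.8% higher and 2.17% lower over all tested genes), with a median log2 change of -0.07. Fcna, which encodes ficolin A, a lectin of macrophages that activates the pathway, rose from 15.4 ± 2.53 to 32.9 ± 8.13 RPKM (log2 change 1.03 ± 0.20 SE, limma adjusted p = 0.0127, and 0.0547 without control replicate 1). C2, the protease of the classical convertase and the direct neighbour of Cfb in RefSeq, rose 1.80-fold, from 20.8 ± 6.75 to 37.6 ± 6.36 RPKM (limma adjusted p = 0.0325). Colec11, a collectin gene, rose from 18.5 ± 3.97 to 29.3 ± 2.54 RPKM (limma adjusted p = 0.0314), and C1s, a protease gene of the C1 complex, from 71.3 ± 1.78 to 102.9 ± 10.5 RPKM (limma adjusted p = 0.0353). Median-ratio scaling ended the calls of C2, Colec11 and C1s (limma adjusted p = 0.0892, 0.125 and 0.364), and quantile normalization those of C2 and Colec11 (0.0616 and 0.0758). Leaving out control replicate 1, control replicate 3, dKO replicate 2 or dKO replicate 3 also ended them (limma adjusted p from 0.0559 to 0.108). Those of Colec11 and C1s were lost without dKO replicate 1 too (0.0667 and 0.0645), and that of C1s without control replicate 2 (0.054).

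C1rb, a mouse copy of the C1r gene that can share reads with C1ra, fell from 3.49 ± 0.80 to 1.31 ± 0.56 RPKM (limma adjusted p = 0.0184, and 0.0579 without control replicate 1). C4b, which shares most of its sequence with C4a, stood at 160.0 ± 34.7 and 116 ± 5.76 RPKM (limma adjusted p = 0.112). C1qa, a chain of the C1q recognition molecule made by macrophages, measured 31.2, 72.9 and 29.9 RPKM in control and 60.4, 46.1 and 57.8 RPKM in dKO (limma adjusted p = 0.39). The C1qa value of control replicate 2 was the highest of the 6, and without it the limma adjusted p was 0.0142.

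Of 9 tested fluid-phase regulators 2 rose, against 17.8% of all tested genes, and 1 fell, against 2.17%, with a median log2 change of -0.04. Clu, which encodes clusterin, an inhibitor of membrane attack complex assembly and a general extracellular chaperone, measured 362, 299.9 and 383 RPKM in control and 824, 823 and 1976 RPKM in dKO. The rise was largest in dKO replicate 3, and the log2 change of 1.67 ± 0.34 (SE) was 1.25 without that library (limma adjusted p = 0.0141, and 0.0544 without control replicate 1). C4bp, which encodes the C4b-binding protein, went from 184 ± 1.94 to 272 ± 22.3 RPKM (limma adjusted p = 0.0364), and lost its call after median-ratio scaling (0.358) and without control replicates 1 or 3 or dKO replicates 1 or 2 (0.0994 to 0.113). Cpb2, a plasma carboxypeptidase that trims the C3a and C5a peptides and restrains fibrin breakdown, fell from 133 ± 22.7 to 58.8 ± 18.5 RPKM (log2 change -1.20 ± 0.25 SE, limma adjusted p = 0.016). Of 3 tested membrane regulators 0 were called by limma, and 0 had an unadjusted p under 0.05, with a median log2 change of -0.16. One of them, Cd59a, an inhibitor of C9 insertion, stood at 14.5 ± 3.16 and 14.9 ± 3.06 RPKM (limma adjusted p = 0.881).

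Of 9 receptors found, 4 were tested, of which 2 rose, against 17.8% of all tested genes, with a median log2 change of 0.60. One of the 2, C3ar1, was under 1 RPKM in every control library and passed the filter only through its dKO values. The count of receptors that rose therefore depends in part on the filter. Vsig4, a receptor for C3b fragments on Kupffer cells, the liver macrophages, rose from 14.5 ± 1.18 to 26.6 ± 5.02 RPKM (log2 change 0.82 ± 0.15 SE, limma adjusted p = 0.00975). C3ar1, the C3a receptor, went from 0.581 ± 0.080 to 1.63 ± 0.457 RPKM (limma adjusted p = 0.0268, and 0.0504 to 0.0757 without any one of the control libraries or dKO replicate 1). Quantile normalization also ended the C3ar1 call, at a log2 change of 0.33 in place of 0.72 (limma adjusted p = 0.16). Cfp, which encodes properdin, a stabiliser of the alternative convertase, stood at 15.5 ± 4.72 and 15.2 ± 1.91 RPKM (limma adjusted p = 0.98). Cfd, the factor D gene, was at most 0.222 RPKM in any library and was not tested.

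**Figure D4:**
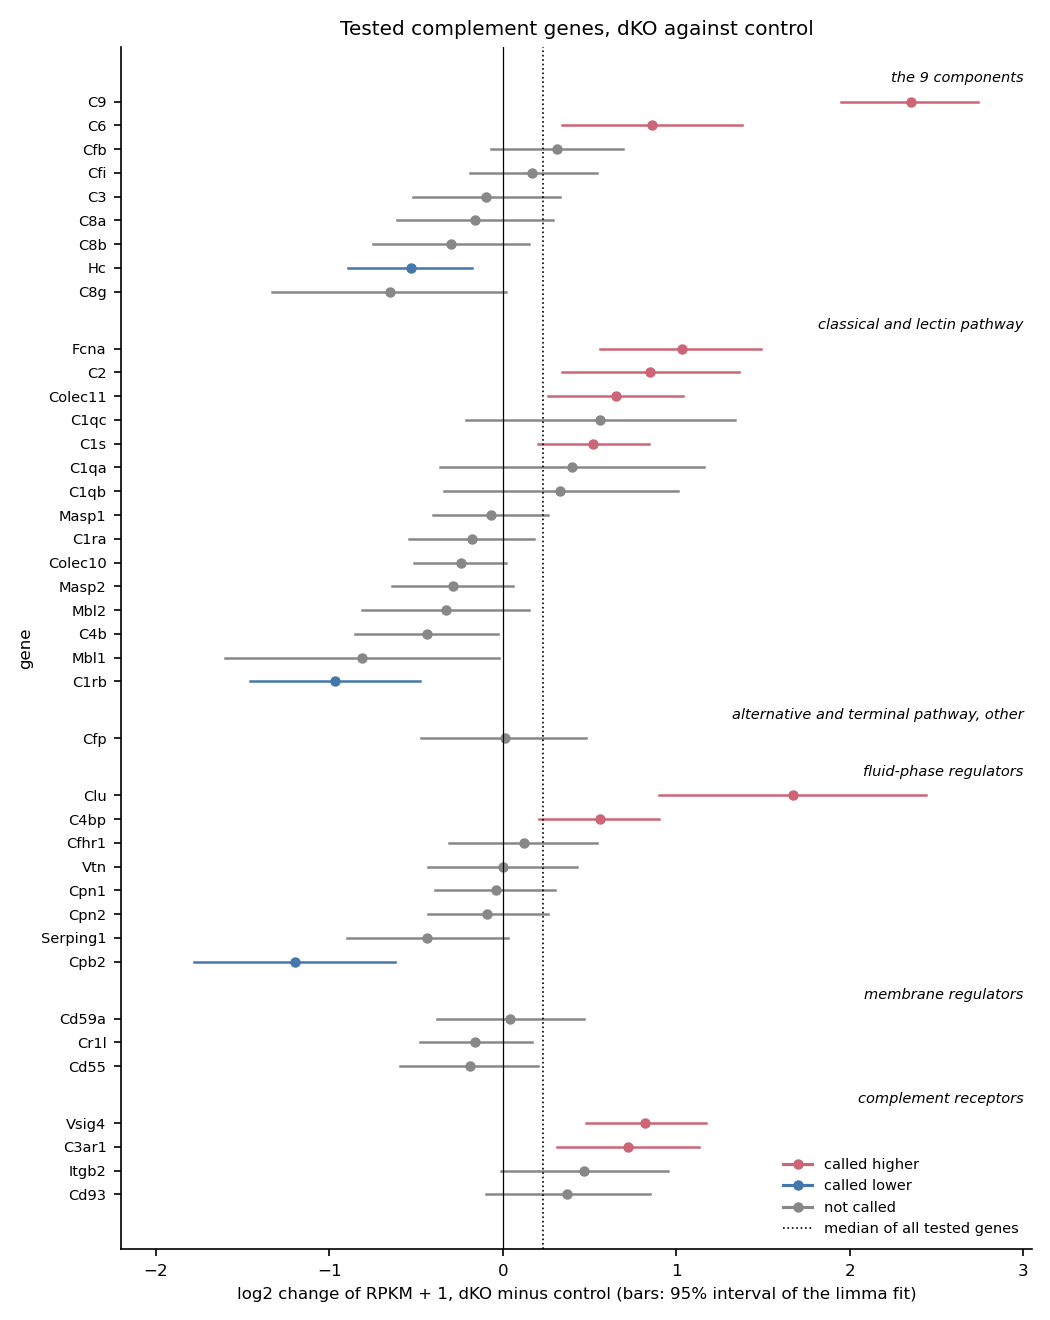
Log2 change of RPKM + 1, dKO minus control (horizontal axis), with the 95% interval of the limma fit, for the 9 components and the other tested complement genes reported here (vertical axis), grouped by role and coloured by call. C9 lies at 2.35, apart from the other components, and the dotted line marks the median of all tested genes (0.23).

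Markers of cell types were read beside these values, since in whole liver a change in the share of a cell type and a change in RNA per cell cannot be told apart. Hepatocyte markers were abundant in all libraries (51415 to 82266 RPKM summed over 13 genes, Alb highest), with 59715 to 82266 in control and 51415 to 59896 in dKO. Of these 13 genes 0 were called higher, against 17.8% of all tested genes, and 2 lower, against 2.17%. Their median log2 change was -0.41, beside 0.23 for all tested genes. Groups did not overlap with dKO lower at 7 of the 13, against 6.73%, and with dKO higher at 0. Kupffer cell and macrophage markers summed to 114 to 230.4 RPKM in control and 187 to 282 RPKM in dKO. Of these 10 genes 2 were called higher, near the 17.8% of all tested genes, and 0 lower. Groups did not overlap with dKO higher at 2 of the 10 and with dKO lower at 1, Marco (12.5 ± 7.47 and 3.52 ± 1.11 RPKM, limma adjusted p = 0.0531). Shares over all tested genes were 38.3% and 6.73%. Control replicate 2 had the highest control sum of these markers, as it had the highest C1qa of the 6 libraries. Cholangiocyte and progenitor markers summed to 39.0 to 92.1 RPKM in control and 365 to 1027 RPKM in dKO, and 7 of 7 tested were called higher, against 17.8%. Of these, Epcam (mean 0.359 RPKM in control and 6.77 RPKM in dKO) passed the filter only through the dKO libraries. The sum of these markers was highest in dKO replicate 3, as was Clu, while C9 in that library lay between the other dKO values. Stellate and fibroblast markers (0 of 10 called, with 179.7 to 194 and 191 to 329.5 RPKM), sinusoidal endothelial markers (0 of 8, with 107 to 113 and 116 to 133 RPKM) and lymphocyte and neutrophil markers (0 of 2, with 53.0 to 108 and 38.0 to 75.9 RPKM) completed the set. At an unadjusted limma p under 0.05 these 3 lists held 4, 0 and 1 genes, and the Kupffer cell and macrophage list held 5. The share of all tested genes at that threshold was not counted. By unadjusted limma p, Hc at 0.00832 ranked 2031 and C8g at 0.0569 ranked 4396 among the 11062 tested genes. Median log2 changes were 0.68, 0.16 and -0.33 for the 3 lists and 0.54 for the Kupffer cell and macrophage list, beside 0.23. The part of these cells in the levels of C9, Fcna, Vsig4 and Clu was not tested.

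Several complement genes belong to the acute phase response of liver, in which inflammatory cytokines act through STAT3 and C/EBP factors. Of 18 acute phase and STAT3-responsive genes 3 were called higher, near the 17.8% of all tested genes, and 3 lower, against 2.17%. The called genes were Lcn2, Hp and Socs3 (higher) and Itih4, Orm2 and Saa3 (lower). Lcn2, which encodes the siderophore-binding lipocalin 2, had the largest called change of these, from 17.0 ± 2.21 to 90.1 ± 53.4 RPKM (limma adjusted p = 0.00923). Hp (haptoglobin) went from 594 to 974 RPKM (limma adjusted p = 0.0493), and Itih4, an inhibitor heavy chain gene, from 628 to 427 RPKM (limma adjusted p = 0.0498). Saa1, which encodes the main mouse acute phase serum amyloid A with Saa2, had a limma adjusted p of 0.351. Of 13 tested genes for transcription factors that act on complement genes, 3 were called higher, a share near the 17.8% of all tested genes, and 0 lower. Among the 3 were Foxa1 (4.58 to 10.1 RPKM, limma adjusted p = 0.00818) and Cebpb (2.50 to 5.79 RPKM, limma adjusted p = 0.017). Hnf4a stood at 133 and 114 RPKM (limma adjusted p = 0.295).

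Terminal components are among the complement proteins known to be higher in male than in female mice, so sex-linked genes were read beside them. The terminal members went both ways, with log2 changes of 2.35 for C9 and 0.86 for C6. Those of Hc, C8g, C8b and C8a were -0.53, -0.65, -0.30 and -0.16, and of these 4 only Hc was called. Xist, expressed from the inactive X chromosome of females, measured 55.7 to 65.1 RPKM in control and 79.7 to 93.5 RPKM in dKO libraries. The Y-linked Ddx3y was listed at 0 in all 6 libraries, and Eif2s3y, Uty and Kdm5d were at most 0.0270 RPKM in any. By these genes all 6 libraries, control and dKO alike, read as female. Of 13 tested genes with higher expression in female liver 0 rose, against 17.8% of all tested genes, and 6 fell, against 2.17%. Their sums were 1732 to 2167 RPKM in control and 471 to 852 RPKM in dKO. Among 8 tested genes with higher expression in male liver, 1 rose (Mup20, a male urinary protein gene), not above the 17.8% of all tested genes, and 0 fell. The median log2 change of these 8 was -0.17, beside 0.23 for all tested genes. The part of sex-linked and sex-biased genes in the values of the terminal components was not tested.

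For the components the gene with the most similar profile was sought, by Pearson r of log2(RPKM + 1) over the 6 libraries, which include both groups, so that any gene with the same group difference scores high. For C9 this was Arl15, a small GTPase gene (r = 0.998, 2.34 ± 0.125 RPKM in control and 4.70 ± 0.326 RPKM in dKO), and 29 genes had r over 0.99. For C6 it was Hmg20b (r = 0.995), for Hc Slc17a1 (r = 0.991), for C8g Sod1 (r = 0.995), for C8b Hsd3b5 (r = 0.997), for C8a Reep6 (r = 0.987), for C3 Cyp4a31 (r = 0.986) and for Cfb Rpl10a (r = 0.999). With Cfb 23 genes had r over 0.99. Hsd3b5 (1.63 ± 0.919 RPKM in control and 0.812 ± 0.739 RPKM in dKO) and Rpl10a (1.11 ± 0.285 and 2.41 ± 0.770 RPKM) lay near the filter on low values. Among the 9 themselves C8a and C8b had r = 0.86, C8b and C8g 0.84, C9 and C6 0.89, and C9 and Hc -0.92.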

How the data were processed

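Polyadenylated liver RNA was measured in 3 control and 3 dKO libraries. The deposited values are read as RPKM, 1 file per library, made by the authors from their reads; the files do not name the unit, and it was inferred from low values, 71.4% to 79.1% of which (215 to 438 values per library) lay within 0.15 of a whole read, against 30% if evenly spread. The spacing was chosen to suit the same values, so the unit was not tested. Per the submitters' processing notes the genome build was mm9; the aligner, counter and annotation are not given in the sources used here.

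Values were taken as log2(RPKM + 1) for the 11062 genes whose mean reached 1 RPKM. One limma fit (version 3.58.1, R 4.3.3) covered all of them, with trend and robust moderation and without a block, with Benjamini-Hochberg adjustment and a threshold of 0.05. Intervals are 95% intervals of that fit. Depth, motifs and figures used Python 3.11.15, numpy 2.4.6 and matplotlib 3.10.9.

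The members, the gene lists and the tests were chosen with earlier results of these data known. Named genes were the 9 members, up to 4 called genes of smallest p per complement list, a fixed set of other complement genes, the nearest profile of each member, and marker genes; C1s, Hp, Itih4, Saa1, Lcn2, Socs3, Orm2, Saa3, Foxa1, Cebpb and Mup20 were named after their values were seen. A few genes that this rule or these lists name are not reported here. Alternatives were a pseudocount of 0.1, 2 other filters, 2 scalings, sample weights, plain moderation, the replicate number as a block, and leaving out each library in turn. All 6 files were used.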

Additional observations from a re-analysis of the deposited data

How the results depend on the processing

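Of the 14 alternatives, each kept the call and direction of C9, with log2 changes of 2.06 to 2.46. Members called higher numbered 1 without a filter, after median-ratio scaling and after quantile normalization, where C6 lost its call, and 1 to 2 with 1 library left out. Members called lower numbered 0 without a filter, with a replicate block, after quantile normalization and with each library left out, where Hc lost its call, and 2 with sample weights, where C8b joined. Other complement genes called higher numbered 4 after median-ratio scaling, 5 after quantile normalization, 11 with sample weights and 1 to 9 with 1 library left out. Those called lower numbered 4 after median-ratio scaling, 3 after quantile normalization or with sample weights and 1 to 2 with 1 library left out. Directions turned after median-ratio scaling for Cfi (-0.11), Stk4 (-0.11), Cfp (-0.26) and Cd59a (-0.23), after quantile normalization for C3 (0.34), Stk4 (-0.16), Cfp (-0.22) and Cd59a (-0.20), for Cfp without control replicate 3 (-0.21) or dKO replicate 3 (-0.08; range with 1 library left out -0.21 to 0.21), and for Cd59a without control replicate 1 (-0.09) or dKO replicate 1 (-0.11; range -0.11 to 0.20). None of these genes was called in any of these settings. Without dKO replicate 3, C3ar1 fell under the filter on low values and has no value. After removal of group means, the correlations of same-numbered libraries were -0.081, -0.101 and -0.010, and no library correlated best with its own number. With 3 libraries per group these correlations constrain one another, so they cannot settle whether the replicate numbers pair the libraries. With the replicate block 1513 genes of all tested were higher and 202 lower, against 1965 and 240. There C1s (limma adjusted p = 0.0964) and C4bp (0.101) were not called. Counts over all tested genes moved as well. Of these genes 866 were higher and 613 lower after median-ratio scaling, 727 and 554 after quantile normalization, and 4133 and 601 with sample weights. Without a filter 1434 of 16907 were higher and 145 lower. With 1 library left out, 763 to 1992 were higher and 90 to 241 lower, with the fewest of both without control replicate 1. With 1 library left out, the lone pair in its group is assumed to vary like the other group. Read totals are not in the files, so no counting error could be given, and values of C6, C1rb and C3ar1 of a few RPKM rest on fewer reads than the rest.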
